A study of Mus musculus with 3 samples.

Results

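The 10 genes described here encode the receptors *Notch1*, *Notch2* and *Notch4*, the ligands *Dll4*, *Jag1* and *Jag2*, and the Notch target genes *Hey1*, *Hey2*, *Heyl* and *Hes1*. They were chosen by name, and all 10 were found among the 27,985 gene rows of the count table. Their transcripts were counted in 9,562 single cells that had been sorted as endothelium of the adult mouse heart. The starting cells came from female mice with a GFP reporter and were sorted as positive for GFP, CD31 and VE-Cad and negative for PDGFRA, PDGFRB, CD45 and CD41. They were sequenced fresh or after 24, 48, 72 or 96 h in co-aggregates with *Mesp1*-derived PSCs, the DsRed+ PDGFRA+ stromal cells of the E11.5 aorta-gonad-mesonephros region that descend from *Mesp1*-expressing mesoderm and lack PDGFRB and the endothelial and blood markers. Cells sorted again from the cultures were GFP+CD31+VE-Cad+PDGFRA-, so blood surface markers were excluded at the first sort and not at the second. The culture medium contained serum and the blood cytokines IL-3, SCF and Flt3L. All time points were combined in each of 3 pools (A, B and C), which the methods call biological triplicates.

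Notch receptors sit on the cell surface and are cut when they bind a ligand on a neighbouring cell. The freed inner part enters the nucleus, joins the DNA-binding protein RBPJ and switches on repressors of the Hes and Hey families. In blood vessels this pathway is known for setting arterial identity, and in the embryonic aorta it is needed for blood stem cells to arise from endothelium.

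Each cell bears the authors' cluster number, from 0 to 6, and a library suffix from 1 to 3. No label links a suffix to a pool or a cell to a time point. The table was therefore counted as 1 sample, and no test took the suffixes as replicates. Values are given for each library instead. The clusters were made from these same counts, so differences between them describe the clusters. A level is the number of UMIs (unique molecular identifiers, each 1 captured messenger RNA) per 10,000 UMIs of a group of cells. A share is the percentage of cells with at least 1 UMI after 5,000 UMIs had been drawn from each cell, which removes differences in depth. The 95% intervals in parentheses cover counting error only.

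The libraries held 2,097 to 3,958 cells and had medians of 13,440.5 to 38,312 UMIs per cell, with suffix 2 the shallowest. Medians by cluster ran from 7,875 UMIs in cluster 1 to 36,065.5 in cluster 5. The endothelial label was checked with 6 marker genes (*Cdh5*, *Pecam1*, *Kdr*, *Egfl7*, *Tek* and *Emcn*), whose summed level was 40.1, 41.6 and 30.2 in clusters 0, 1 and 2 and only 3.42 to 5.39 in clusters 3 to 6. Cluster 0 also had the highest summed level of 5 arterial genes (*Gja4*, *Gja5*, *Sox17*, *Bmx* and *Efnb2*), 26.1 against 5.01 and 2.81 in clusters 1 and 2. Genes of germ or pluripotent cells were high in cluster 3 (44.0), of fibroblasts in cluster 4 (20.1), of leukocytes in cluster 5 (23.7) and of megakaryocytes in cluster 6 (195). Clusters 3 to 6 therefore go against the label of the sort, and clusters 0, 1 and 2 are called endothelial below.

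*Hey2*, the member with the largest log2 ratio between cluster 0 and clusters 1 and 2, was the only 1 of the 7 members with a promoter window whose window held the core motif that RBPJ binds (TGGGAA, or TTCCCA on the other strand). The window of 250 bases before to 50 bases after the start lies on the minus strand of GRCm38.p6, at chr10:30842734-30843033, and is given from RefSeq with both matches in capitals.
Hey2 promoter: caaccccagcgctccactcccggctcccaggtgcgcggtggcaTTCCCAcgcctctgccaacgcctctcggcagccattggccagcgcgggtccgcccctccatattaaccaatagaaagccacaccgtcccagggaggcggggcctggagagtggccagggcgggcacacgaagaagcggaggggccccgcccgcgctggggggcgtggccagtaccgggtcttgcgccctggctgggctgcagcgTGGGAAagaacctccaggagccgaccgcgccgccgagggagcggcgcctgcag
The matches begin 207 and 3 bases before the start. Windows were found for 7 of the 10 genes, not for *Hey1*, *Heyl* and *Hes1*, and the motif stood in 1 of the 7 (14.3%), while 25.6% of all 32,851 windows of this length held it. A match describes these letters and not a bound site.

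Among the receptors, *Notch1* (ENSMUSG00000026923, chr2:26457903-26516663, minus strand) was highest in clusters 0 and 1. Its level in the libraries was 1.98, 2.16 and 2.0 in cluster 0, 1.35, 2.15 and 1.74 in cluster 1, and 0.801, 1.10 and 0.818 in cluster 2. Clusters 0 and 1 overlapped between libraries and both lay above cluster 2. By share, a *Notch1* UMI was found in 60.1% (56.4–63.7%), 52.6% and 36.7% of the cells of these 3 clusters in turn, against 5.83% of cluster 6 (3.49–9.05%). Cluster 6 was the lowest in level too, at 0.111, below the 0.252 to 0.405 of clusters 3, 4 and 5.

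*Notch4* (ENSMUSG00000015468, chr17:34564268-34588503, plus strand), a receptor known mainly from endothelium, had the same order at the top. Its levels in the libraries were 0.842, 1.03 and 0.848 in cluster 0, 0.691, 1.02 and 0.868 in cluster 1, and 0.284, 0.369 and 0.319 in cluster 2. Clusters 0 and 1 again overlapped and stood apart from cluster 2. Clusters 3 to 6 had 0.0426 to 0.0862, each overlapping its neighbour in that order. The share of cells with a UMI was 41.0% in cluster 0 (37.4–44.7%) and 2.27% in cluster 6 (0.916–4.61%).

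*Notch2* (ENSMUSG00000027878, chr3:98013527-98150361, plus strand), a receptor used in many tissues, was ordered differently, with its lowest level in cluster 0. It stood at 0.241, 0.430 and 0.116 in the libraries of cluster 4 and at 0.0360, 0.0339 and 0.0301 in those of cluster 0. Each neighbouring pair of clusters in its order (4, 5, 3, 1, 2, 6 and 0) overlapped between libraries, although clusters 4 and 0 at its ends did not. Suffix 2 had the highest *Notch2* level in 6 of the 7 clusters, and the exception was cluster 0.

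The ligand *Dll4* (ENSMUSG00000027314, chr2:119325784-119335962, plus strand), known for arterial and sprouting capillary endothelium, was highest in cluster 1. The libraries gave 1.89, 2.32 and 2.11 in cluster 1, 1.68, 1.59 and 1.84 in cluster 0, and 0.329, 0.388 and 0.316 in cluster 2. These 3 clusters did not overlap. By share the first 2 changed places, with 53.2% of cells in cluster 0 (49.5–56.9%) and 47.5% in cluster 1 (43.9–51.2%), so no order of this pair of clusters by detection can be read. Clusters 3 to 6 had levels of 0.0557 to 0.0980.

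*Jag1* (ENSMUSG00000027276, chr2:137081456-137116644, minus strand) and *Jag2* (ENSMUSG00000002799, chr12:112907819-112929776, minus strand), ligands of the Jagged family, were both highest in cluster 0. *Jag1* stood at 0.977, 1.47 and 1.05 in the libraries of cluster 0, 0.424, 0.70 and 0.440 in cluster 1 and 0.160, 0.255 and 0.153 in cluster 2, with no overlap between these clusters. Outside the endothelial clusters *Jag1* was highest in cluster 4, where 0.265, 0.251 and 0.213 overlapped the range of cluster 2. *Jag2* had 0.349 in cluster 0 (0.317–0.383), 0.219 in cluster 1 and 0.0870 in cluster 2, again without overlap, and 0.0111 to 0.0329 elsewhere.

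**Figure D1:**
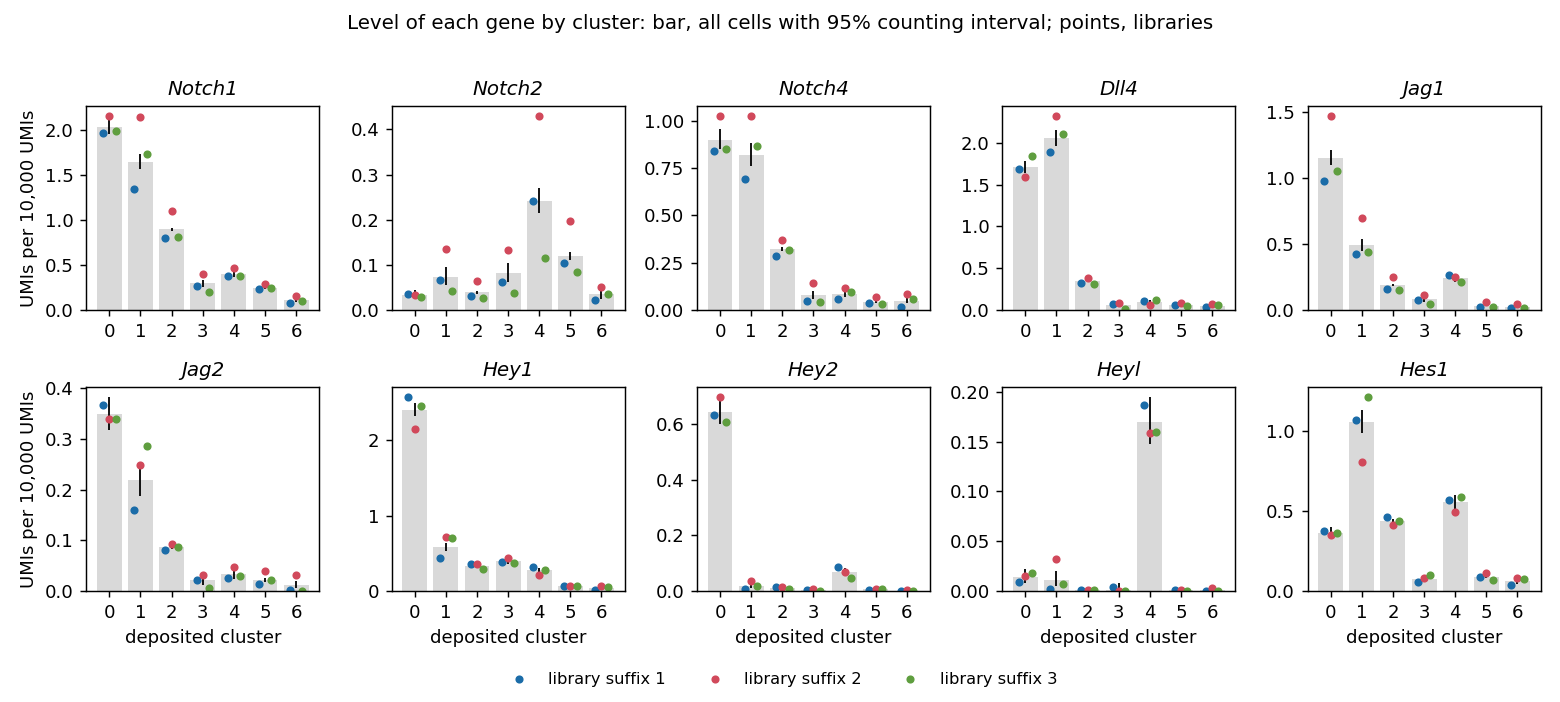
Level of each of the 10 genes (UMIs per 10,000 UMIs, linear axes starting at 0 with a scale of their own) in the deposited clusters 0 to 6. Bars are all cells with 95% counting intervals and points are the 3 libraries; 6 panels peak in cluster 0, *Dll4* and *Hes1* peak in cluster 1, and *Notch2* and *Heyl* peak in cluster 4.

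The 4 target genes had 3 different leading clusters. *Hey1* (ENSMUSG00000040289, chr3:8663359-8667256, minus strand), a repressor known from arterial endothelium, stood at 2.58, 2.15 and 2.45 in the libraries of cluster 0 and at 0.442, 0.711 and 0.710 in those of cluster 1. Its share was 64.4% in cluster 0 (60.8–67.9%), and 18.3% and 13.0% in clusters 1 and 2. The next level was that of cluster 3, at 0.389, 0.434 and 0.368, which was above every library of cluster 2 (0.360, 0.362 and 0.293).

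*Hey2* (ENSMUSG00000019789, chr10:30832359-30842801, minus strand), a second arterial and heart repressor, had by far its highest level in cluster 0. It stood at 0.633, 0.697 and 0.605 there and at 0.00771, 0.0377 and 0.0188 in the libraries of cluster 1. Cluster 4 was second in level, at 0.0868, 0.0688 and 0.0462. In cluster 0 a UMI was found in 27.0% of cells (23.8–30.4%), and in the other clusters in 0.324% to 2.54%.

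*Heyl* (ENSMUSG00000032744, chr4:123233556-123249875, plus strand), known as the Hey gene of vascular smooth muscle, was highest in cluster 4. There it had 0.187, 0.158 and 0.160 in the libraries from 201 UMIs, whereas cluster 0 had 18 UMIs and cluster 2 had 14. A UMI was found in 6.25% of the cells of cluster 4 (4.31–8.71%) and in at most 0.831% of the cells of any other cluster. At 5,000 UMIs per cell it was found in 0 of 239 cells of cluster 3 and 0 of 309 cells of cluster 6, which by the exact intervals allows shares of up to 1.53% and 1.19%.

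*Hes1* (ENSMUSG00000022528, chr16:30064384-30067796, plus strand), a target that other signals also control, was highest in cluster 1. The libraries gave 1.07, 0.808 and 1.22 in cluster 1, 0.569, 0.496 and 0.587 in cluster 4, 0.465, 0.412 and 0.439 in cluster 2, and 0.374, 0.350 and 0.366 in cluster 0. None of these 4 clusters overlapped, so cluster 0 was the lowest of them for *Hes1* while it was the highest for *Hey1* and *Hey2*.

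Cluster 0 was compared with clusters 1 and 2 to ask how the arterial-gene cluster differs from the remaining endothelium. The UMIs of clusters 1 and 2 were summed, and cluster 2 held 140,516,887 of them against 8,412,051 in cluster 1. The ratios are therefore mainly against cluster 2. Set against cluster 1 alone, *Dll4* was lower in cluster 0 (1.71 against 2.05), with the libraries apart. *Notch1* and *Notch4* overlapped between clusters 0 and 1. A gene was called past the fold when its levels differed at least 2-fold, the higher level was at least 0.1, and the direction was the same in each library. Of the 8 members that met the level, 7 were higher past the fold in cluster 0 and 0 were lower, while 7.62% of the 8,729 genes that met the level were higher past the fold and 3.33% lower. The median log2 ratio was 1.92 over all 10 members and 0.13 over all genes. *Notch1* had a log2 ratio of 1.11 (1.05 to 1.17) and *Notch4* of 1.36 (1.27 to 1.45). Among the ligands the ratio was 1.96 for *Dll4*, 2.5 for *Jag1* (2.41 to 2.59) and 1.88 for *Jag2*. *Hey1* had 2.78 (2.71 to 2.84) and *Hey2* 5.77 (5.53 to 6.01), or 0.643 against 0.0118 UMIs per 10,000. *Hes1* had -0.38 (-0.52 to -0.25) and *Notch2* -0.33 (-0.82 to 0.12), neither of them past the fold, and *Heyl* rested on 18 and 23 UMIs. The junction gene *Cdh5* had 1.01 and *Pecam1* 1.03 in the same comparison. With 5,000 UMIs drawn from each cell, *Notch1* and *Dll4* had log2 ratios of 0.96 and 1.54, the first of them under the 2-fold limit.

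The other genes of the pathway, a list of 42, had a median log2 ratio of 0.34 in the same comparison. Of the 31 that met the level, 7 were higher past the fold in cluster 0 and 1 was lower, beside the 7.62% and 3.33% of all genes. *Notch3*, a receptor best known from smooth muscle and pericytes, had a log2 ratio of 2.56 (2.36 to 2.75). *Efnb2*, an arterial marker that is also part of the arterial sum used to describe cluster 0, had 2.21. *Nrarp*, a target that feeds back on the pathway, had 1.38. *Aph1b* and *Psen2*, parts of the protease that frees the receptor's inner domain, had 2.03 and 1.55, *Dtx3* 1.09 and the fringe *Rfng* 1.04. The ligand *Dll1* was lower, at -1.11 (-1.47 to -0.78). All 7 genes of the nuclear complex met the level and 0 were past the fold, with 0.25 for *Rbpj*. The fringe *Mfng*, which modifies receptors, also had 0.25.

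Cluster 1 against cluster 2 compared the 2 endothelial clusters that are low in arterial genes. Of 7 members that met the level, 5 were higher past the fold in cluster 1 and 0 lower, beside 20.0% and 10.4% of the 9,191 genes tested. *Dll4* had the log2 ratio 2.58 (2.5 to 2.66), *Jag1* 1.39, *Notch4* 1.35, *Jag2* 1.33 and *Hes1* 1.27 (1.17 to 1.37). *Notch1* with 0.88 and *Hey1* with 0.80 were higher in each library but under the 2-fold limit. The ratio of *Hey1* ran from 0.29 to 1.28 between libraries. Of the listed pathway genes 3 of 29 were higher past the fold and 0 lower, under the 20.0% and 10.4% of all genes. They were *Dll1* at 2.06 (1.89 to 2.22), *Psen2* at 1.95 and *Efnb2* at 1.49. *Cdh5* itself had 1.21. Cluster 1 cells were shallower (medians of 7,875 against 22,493 UMIs), and 7 leukocyte genes summed to 2.57 in cluster 1 (1.02 to 3.32 between libraries) against 0.113 in cluster 2 (0.0466 to 0.226). Genes of other cell types were higher in cluster 1 as well. Fibroblast genes summed to 2.57 against 0.159, megakaryocyte genes to 1.93 against 0.233 and mural genes to 1.19 against 0.0580. Erythroid genes had 4.09 (0.173 to 12.1 between libraries) against 0.197 (0.0569 to 0.445). The part of depth or of these genes' cells in the ratios was not tested.

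Cells differed in how many of the 10 genes they showed. At 5,000 UMIs the mean was 3.23 genes per cell in cluster 0, with 3.17, 3.29 and 3.21 in the libraries. It was 2.16 in cluster 1, 1.18 in cluster 2 and 0.288 to 0.836 in clusters 3 to 6. At least 4 genes were found in 43.6% of cells in cluster 0 (40.0–47.3%). In clusters 1 and 2 that share was 15.8% and 3.92%, and in the others at most 1.67%. No member was found in 2.63% of the cells of cluster 0 and in 79.9% of those of cluster 6.

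**Figure D2:**
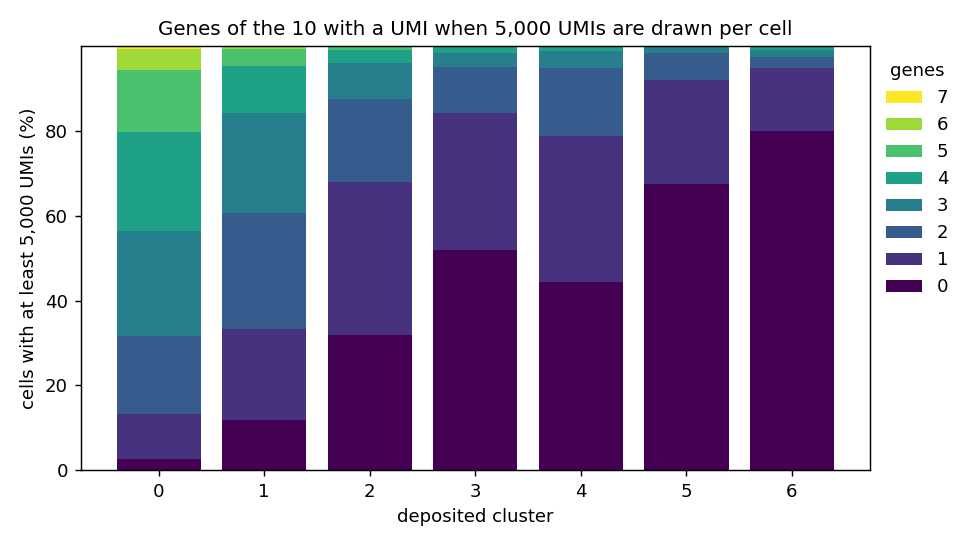
Share of cells (percent, stacked to 100) by the number of the 10 genes with at least 1 UMI when 5,000 UMIs are drawn per cell, for clusters 0 to 6. Cells with no member make up 2.63%, 11.8% and 31.9% of clusters 0, 1 and 2 and 44.3% to 79.9% of the other 4.

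Ligands and receptors were often found in the same cell in clusters 0 and 1. A ligand was found in 77.7%, 60.8% and 26.8% of the cells of clusters 0, 1 and 2. A receptor was found in 74.5%, 65.2% and 47.1%. Classes this common meet in many cells even if detected independently, and an excess over that was not tested. Both classes were detected in 60.2% of cells in cluster 0 (56.6–63.8%), in 43.4% and 14.7% of cells in clusters 1 and 2, and in 2.27% to 4.69% elsewhere. A ligand without a receptor was seen in 17.5% of the cells of cluster 0 and a receptor without a ligand in 14.3%. Undetected genes may be present below this depth.

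Detection of *Hey1* was compared between cells with and without a ligand UMI. In cluster 2, *Hey1* was found in 30.7% of the 858 cells with a *Dll4* UMI (27.6–33.9%) and in 9.65% of the 4,519 cells without (8.80–10.5%). The libraries gave 30.6%, 31.5% and 28.6% with *Dll4* and 9.45%, 10.1% and 8.99% without, so they did not overlap. Cluster 1 had 26.6% with *Dll4* (22.0–31.5%) and 10.7% without (7.85–14.2%), again in the same direction in each library. In cluster 0, where most cells had *Hey1*, the shares were 67.4% (62.5–72.1%) and 60.9% (55.5–66.2%), and suffix 3 had the opposite direction with 59.8% and 64.9%. With and without *Jag1*, the shares of *Hey1* were 17.5% (11.6–24.7%) and 18.4% (15.4–21.8%) in cluster 1, with no common direction in the libraries. In cluster 2 they were 17.4% (14.3–20.9%) and 12.5% (11.6–13.5%). The libraries of cluster 2 gave 13.2% and 12.6%, 20.3% and 12.9%, and 12.9% and 11.6%, so the gap was mostly that of suffix 2. With and without *Jag2*, *Hey1* in cluster 2 had 24.9% (19.3–31.1%) and 12.5% (11.6–13.4%), in the same direction in each library. In clusters 0 and 1 the *Jag2* intervals overlapped. The receptor *Notch4* gave 22.2% and 11.2% in cluster 2, so *Dll4* was not the only gene with such a gap. *Notch2* gave 14.9% and 12.9% there, with intervals that overlapped.

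*Hey2* in cluster 0 was detected more often in cells with *Jag1*. It was found in 37.1% of the 313 cells with a *Jag1* UMI (31.7–42.7%) and 19.3% of the 409 cells without (15.6–23.5%). In the libraries the pairs were 36.4% and 17.9%, 36.6% and 23.3%, and 39.1% and 15.5%. With and without *Dll4* the shares of *Hey2* were 26.8% (22.5–31.6%) and 27.2% (22.5–32.3%). *Hey2* was seen in 24.7% of cells with *Hey1* (20.9–28.9%) and 31.1% of cells without (25.5–37.2%). Of the 28 pairs of genes found in at least 50 cells of cluster 0, 4 were together more often with intervals apart, and of 21 pairs in cluster 1 and 28 in cluster 2, 5 and 13. In none of the 3 clusters was a pair together less often with intervals apart. Pairs of other genes were not counted, so no share over all genes stands beside these counts. The intervals pool the libraries and treat cells as independent. In cluster 2, *Jag1* was found in 19.6% of cells with *Notch2* and 9.56% without, but in 5.88% and 7.34% in suffix 3. All cells were at the same depth in these counts, but a cell's library and its position within its cluster can move several genes at once. The part of either was not tested.

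**Figure D3:**
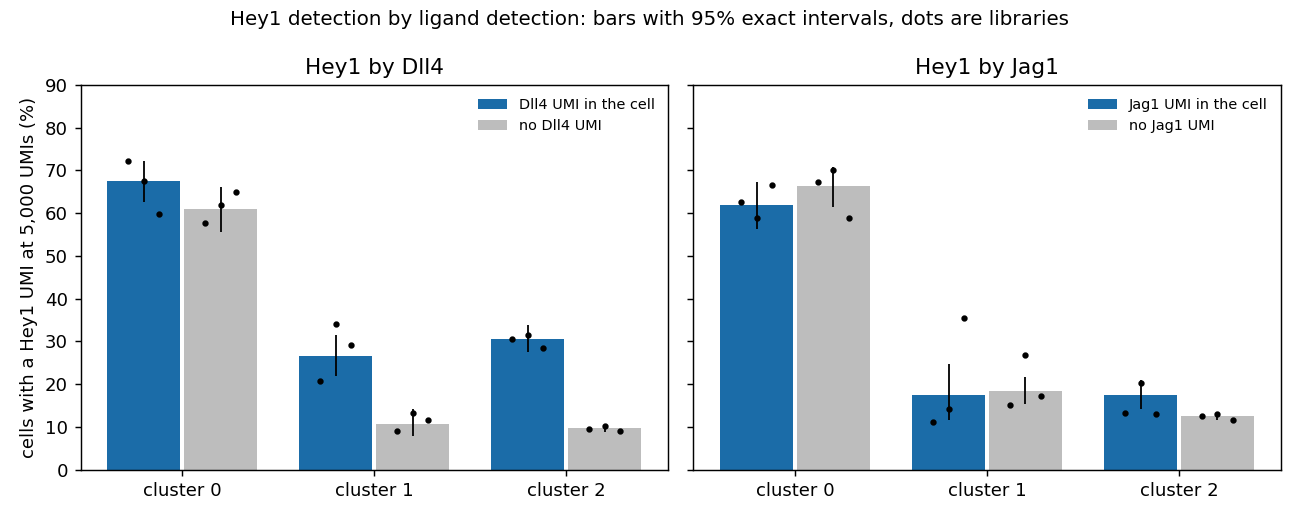
Percentage of cells with a *Hey1* UMI at 5,000 UMIs per cell, among cells with (blue) and without (grey) a UMI of *Dll4* (left) or *Jag1* (right), in clusters 0, 1 and 2. Bars carry exact 95% intervals and dots are libraries; in cluster 2 the share is 30.7% with and 9.65% without *Dll4*, and in cluster 0 the intervals overlap for both ligands.

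Cluster 4, with the fibroblast genes, was compared with clusters 0, 1 and 2 together. Of the UMIs of these endothelial clusters, cluster 2 held 140,516,887, against 12,586,923 in cluster 0 and 8,412,051 in cluster 1. Of 9 members that met the level, 2 were higher past the fold and 4 lower, beside 12.2% and 7.47% of 9,306 genes. The higher members were *Notch2*, with a log2 ratio of 2.55 (2.35 to 2.75), and *Heyl*, with 6.06 (5.57 to 6.59). *Notch1* had -1.35, *Notch4* -2.19, *Dll4* -2.46 (-2.73 to -2.19) and *Jag2* -1.79. With 5,000 UMIs drawn from each cell the ratio was 4.98 for *Heyl*, -3.09 for *Dll4* and -3.50 for *Jag2*. *Hes1* had 0.26, which was -0.08 with 5,000 UMIs per cell, and stood at 120% of its endothelial level, *Jag1* at 87.3% and *Hey1* at 54.7%, whereas *Cdh5* stood at 11.3%. The summed level of 5 mural genes was 9.33 in cluster 4 and 0.0580 to 1.54 elsewhere. Of 35 listed pathway genes that met the level, 8 were higher past the fold and 4 lower, beside the same 12.2% and 7.47% of all genes. *Notch3* had 2.02 (1.83 to 2.20), although its level was 0.254 in cluster 4 and 0.268 in cluster 0. In clusters 1 and 2 the level of *Notch3* was 0.0392 and 0.0459. The ligands *Dlk1* and *Dll3* had log2 ratios of 5.88 and 5.18, and the target *Hes5* 3.80. *Mfng* was lower at -2.95 and *Nrarp* at -1.11.

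Clusters 5 and 6, which carry blood genes, were compared with the endothelial clusters to see at what level the members were. In cluster 5, 1 of the 8 members that met the level was higher past the fold and 7 were lower, beside 9.32% and 16.6% of 8,859 genes. In cluster 6, 0 of 7 were higher and 7 were lower, beside 9.96% and 18.8% of 8,758 genes. Over all 10 members the median log2 ratio was -2.70 and -3.24, against -0.10 and -0.09 over all genes. The 7 lower members were the same in both, namely *Notch1*, *Notch4*, *Dll4*, *Jag1*, *Jag2*, *Hey1* and *Hes1*.

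The remaining levels were set against 5 endothelial reference genes, *Cdh5*, *Pecam1*, *Egfl7*, *Kdr* and *Sox17*, which stood at 8.96% to 21.4% of their endothelial level in cluster 5. *Notch4* (10.8%), *Dll4* (10.9%), *Jag1* (12.1%), *Hey1* (12.4%), *Hes1* (19.0%) and *Jag2* (19.8%) lay within that range. *Notch1* lay above it, at 24.9%, 24.2% and 25.8% in the libraries, against 11.2%, 15.2% and 10.1% for *Cdh5*. *Egfl7* had 27.1% in suffix 2, so *Notch1* was above all 5 genes in suffixes 1 and 3 only. In cluster 6 the reference genes stood at 8.59% to 24.1%, and over all cells the 7 members stood at 8.91% to 13.1%, within that range. The libraries differed. In suffix 1 all of the 7 but *Notch1* lay below the 5 reference genes, from 2.15% for *Jag2* to 7.07% for *Hes1*, against 7.82% for *Sox17*, the lowest reference gene. *Jag2* had 12 UMIs in cluster 6 and stood at 2.15%, 27.6% and 0% in the libraries, and its log2 ratio of -3.36 was -6.38 without suffix 2. With 5,000 UMIs per cell, *Jag1*, *Jag2* and *Hes1* had log2 ratios of -2.30, -2.03 and -2.09.

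*Notch2* had the opposite direction in cluster 5. Its log2 ratio there was 1.54 (1.39 to 1.69), with 1.63, 1.64 and 1.55 in the libraries, and it stood at 291% of its endothelial level. Without suffix 2 its level in cluster 5 was under 0.1 and it no longer counted as past the fold. In cluster 6 it had -0.23 (-0.74 to 0.25). *Rbpj*, which acts for all receptors, had 0.77 in cluster 5 (0.72 to 0.83) and 0.03 in cluster 6, below the fold in both.

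**Figure D4:**
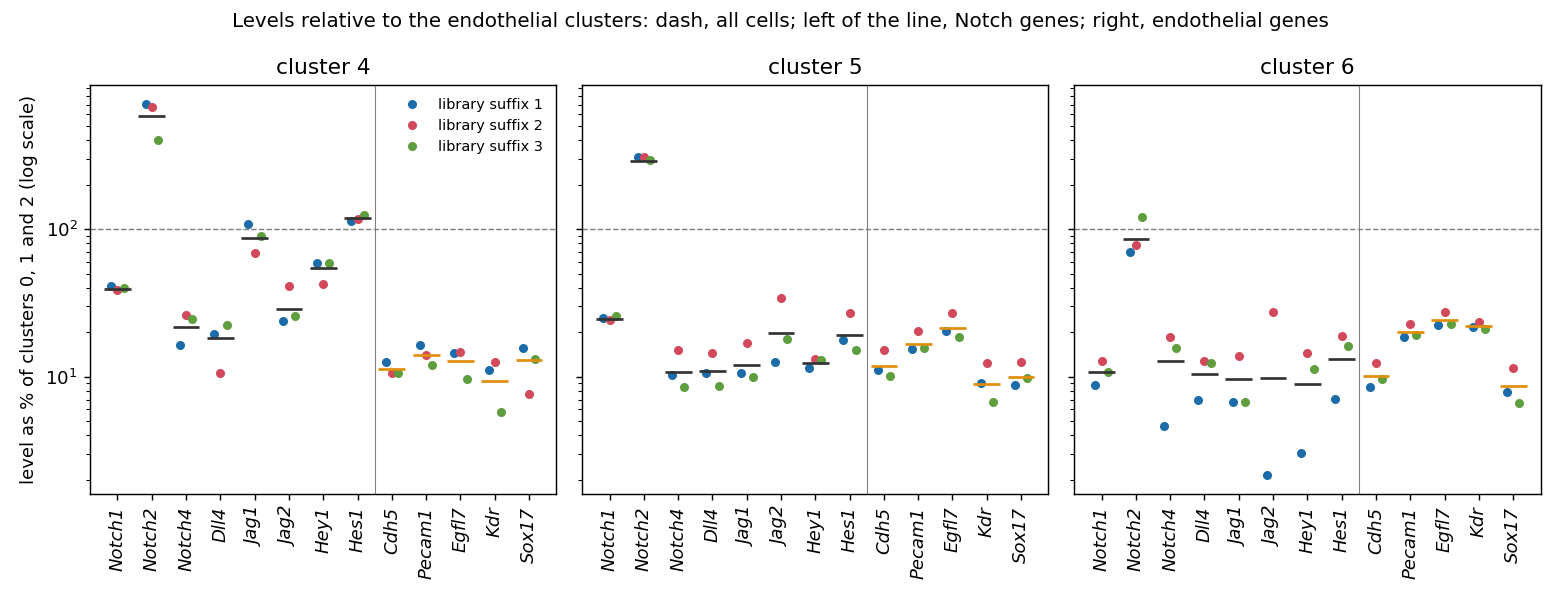
Level in clusters 4, 5 and 6 as a percentage of the level in clusters 0, 1 and 2 together (log axis), for 8 members and, right of the line, 5 endothelial reference genes. Dashes are all cells and points are libraries, with no point for *Jag2* in cluster 6 of suffix 3, where it had 0 UMIs; *Notch2* is at 291% in cluster 5 and most other members lie among the reference genes in clusters 5 and 6.

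Of the listed pathway genes 30 met the level in cluster 5, of which 4 were higher past the fold and 6 lower, near the shares of all genes (9.32% and 16.6%). In cluster 6, 2 of 29 were higher and 8 lower, beside 9.96% and 18.8% of all genes. *Dll1*, *Mfng*, *Nrarp*, *Numb*, *Maml1* and *Efnb2* were lower in both. *Mfng* had -1.26 in cluster 5 (-1.32 to -1.20) and -2.01 in cluster 6, and *Numb*, an inhibitor of Notch, -1.82 and -1.72. *Psen2* was higher in both, at 1.06 and 1.87. In cluster 6 the Hes family gene *Hes7* had 4.90 (4.52 to 5.29), from 173 UMIs.

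*Hey1* stood apart from the endothelial reference genes in cluster 3. It was at 71.7%, 84.5% and 77.1% of its endothelial level in the libraries, whereas *Cdh5* was at 9.0%, 20.0% and 7.29%. Its share there was 20.9% (15.9–26.6%), above the 13.0% of cluster 2 (12.1–13.9%). *Dll4* in the same cells was at 12.2% of its endothelial level. Cluster 3 held 239 cells, 138 of them of suffix 2. The endothelial level pools the UMIs of clusters 0, 1 and 2, most of which were from cluster 2. By cluster, *Hey1* stood at 0.399 in cluster 3 and at 2.40, 0.586 and 0.337 in clusters 0, 1 and 2.

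Cells of cluster 0 were then split by *Runx1*, the transcription factor required for endothelium to form blood. A *Runx1* UMI was found at 5,000 UMIs in 54 of 722 cells, 24, 19 and 11 of them in the libraries, and in 87 of 5,377 cells of cluster 2. Of the 54 cells, 32 had exactly 1 such UMI. At full depth, 36 of the 668 *Runx1*-negative cells also had a *Runx1* UMI, up to 13 in a cell. The *Runx1*-positive cells were deeper before thinning, with a median of 20,597 UMIs against 13,809.5. Of 8 members that met the level, 7 were lower in the *Runx1*-positive cells in each library at any size and 0 were higher in each, while 25.2% and 23.2% of 8,874 genes were. Past the fold, 1 member was lower and 0 higher, beside 5.19% and 2.16% of genes. The count of 1 became 2 without suffix 1 (*Notch1* and *Notch4*) and 2 without suffix 3 (*Notch4* and *Dll4*), and ran up to 6 under the other alternatives, with *Notch4* counted each time. The shares of all genes are for the reported rule, so the counts under alternatives cannot be set against them. The median log2 ratio was -0.73 over the 10 members and 0.05 over all genes.

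*Notch4* was the member past the fold. Its level in the libraries was 0.278, 0.251 and 0.332 in *Runx1*-positive cells and 0.920, 1.11 and 0.887 in *Runx1*-negative cells, which did not overlap. The log2 ratio was -1.77 (-2.31 to -1.28), and a UMI was found in 13.0% (5.37–24.9%) and 43.3% (39.5–47.1%) of the cells. *Notch1* stood at 1.44, 0.976 and 1.13 against 2.05, 2.29 and 2.06, also without overlap, with a log2 ratio of -0.79 (-1.04 to -0.55). *Notch2* rested on 3 and 38 UMIs, a log2 ratio of -0.42 (-2.76 to 1.24).

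*Dll4* was the ligand with the lowest ratio, at 0.889, 0.697 and 1.19 in *Runx1*-positive and 1.78, 1.69 and 1.89 in *Runx1*-negative cells (log2 ratio -0.98, -1.27 to -0.70). *Jag1* had -0.67 (-0.99 to -0.36) and *Jag2* -0.63 (-1.24 to -0.08). For the targets, *Hey2* stood at 0.352, 0.446 and 0.299 against 0.670, 0.723 and 0.629 without overlap (-0.87, -1.35 to -0.43). *Hey1* had 1.65, 1.37 and 2.26 against 2.70, 2.23 and 2.47, which overlapped in range, and a log2 ratio of -0.53 (-0.74 to -0.32). *Hes1* had no common direction, with -0.81, -0.36 and 0.68 in the libraries. *Heyl* had 1 and 17 UMIs (-0.84, -6.23 to 1.83).

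The endothelial reference genes were also lower in these cells. *Egfl7* had a log2 ratio of -0.43, *Cdh5* -0.65, *Pecam1* -0.88, *Sox17* -1.02 and *Kdr* -1.35, so the ratios of *Notch1*, *Dll4*, *Jag1*, *Jag2*, *Hey1* and *Hey2* lay between those of *Egfl7* and *Kdr*. *Notch4* lay below *Kdr* by the value, with intervals of -2.31 to -1.28 and -1.54 to -1.17 that overlap. The 5 arterial genes summed to 14.8 in *Runx1*-positive cells (12.9 to 17.4 in the libraries) and 27.3 in *Runx1*-negative cells (26.0 to 29.1). Of the listed pathway genes 31 met the level and 0 were past the fold in either direction. *Rbpj* had 0.34 (-0.03 to 0.70), *Mfng* 0.08 (-0.18 to 0.32) and *Nrarp* -0.72 (-1.02 to -0.43).

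Some genes of other cell types were higher in the *Runx1*-positive cells of cluster 0. The blood transcription factor *Spi1* was found in 22 of 54 and 32 of 668 cells. The 7 leukocyte genes summed to 0.809 (0.498 to 0.963 in the libraries) against 0.163 (0.0747 to 0.262), with *Mpo*, *S100a8* and *S100a9* at 0 UMIs in the *Runx1*-positive cells. Of 5 megakaryocyte genes, which summed to 0.392 (0.167 to 0.630) and 0.254 (0.195 to 0.320) and overlapped between libraries, *Ppbp* was at 0. The 4 erythroid genes summed to 0.125 (0.0185 to 0.335) against 0.622 (0.00999 to 2.0), with overlap between libraries. The 3 epithelial genes summed to 0.859 (0.630 to 0.982) against 0.410 (0.379 to 0.440), without overlap. Without cells that had a UMI of *Ptprc*, *Spi1*, *Itga2b* or *Csf1r*, 26 *Runx1*-positive and 567 *Runx1*-negative cells were left. *Notch4* then had a log2 ratio of -1.47, *Notch1* -0.74 and *Hey2* -0.63. The ratio of *Dll4* went from -0.98 to -0.61, of *Jag1* from -0.67 to -0.26, of *Jag2* from -0.63 to -0.30 and of *Hey1* from -0.53 to -0.13. These ratios rest on 26 positive cells and are given without intervals. The blood-gene UMIs were looked for at full depth, which was greater in the *Runx1*-positive cells, and the part of depth was not tested. With 5,000 UMIs per cell *Notch4* had -1.98. The part of the epithelial and other marker genes' cells was not tested.

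**Figure D5:**
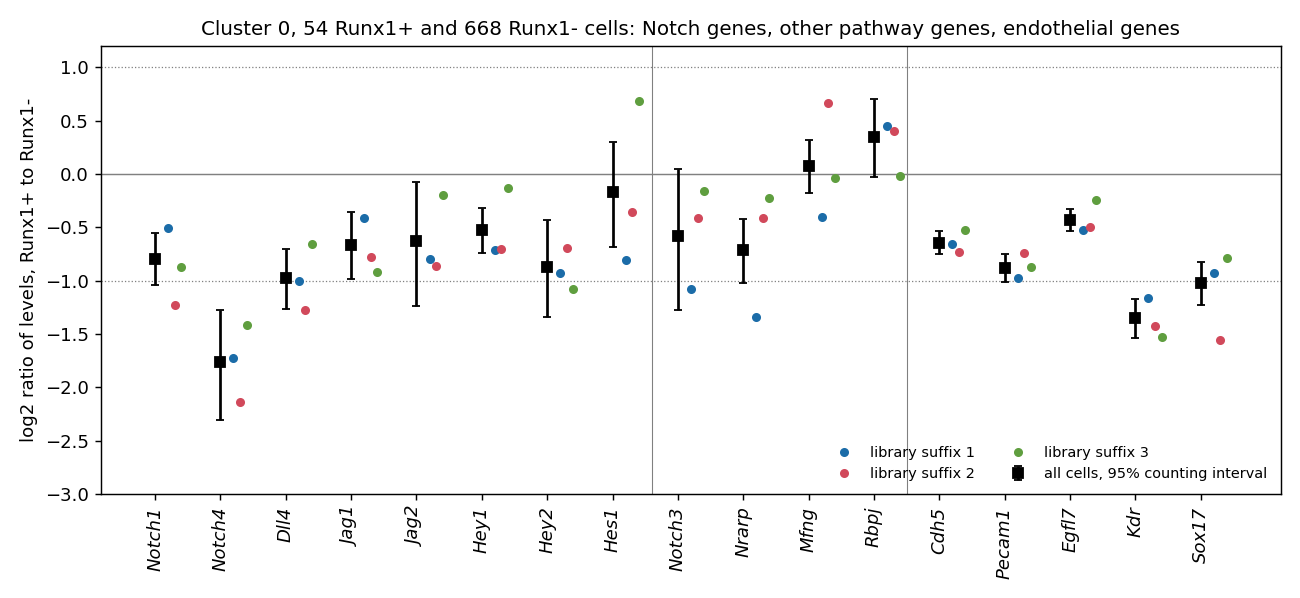
Log2 ratio of levels in 54 *Runx1*-positive to 668 *Runx1*-negative cells of cluster 0, for 8 members, 4 other pathway genes and 5 endothelial reference genes. Squares are all cells with 95% counting intervals, points are libraries and dotted lines mark 2-fold; *Notch4* at -1.77 is the lowest value, and *Hes1*, *Mfng* and *Rbpj* have libraries on both sides of 0.

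The same split in the other endothelial clusters gave other values. In cluster 2, with 87 *Runx1*-positive cells (58 of them in suffix 2), *Notch1* had a log2 ratio of -0.08 (-0.32 to 0.15), *Notch4* 0.06 (-0.33 to 0.43) and *Dll4* -0.44 (-0.90 to -0.02), and *Cdh5* had -0.01. In cluster 1, with 45 positive cells, *Notch4* had -2.17 (-3.08 to -1.38), *Dll4* -2.63 and *Hey1* -2.57, and *Notch2* had 2.09 (1.19 to 2.92). There the 7 leukocyte genes summed to 19.1 in *Runx1*-positive cells (11.4 to 31.1 in the libraries) against 1.19 (0.593 to 1.65), with *Mpo* at 0, and *Cdh5* had -1.79. Megakaryocyte genes summed to 11.2 (2.17 to 14.7) against 1.16 (1.09 to 1.27). Germ and epithelial genes had 0.105 against 0.0521 and 0.0903 against 0.0334, from 7 and 6 UMIs in the positive cells. Both overlapped between libraries. Fibroblast (1.69 against 2.73), mural (0.512 against 1.27) and erythroid genes (0.0451 against 4.58) were lower. The fibroblast and mural sums overlapped between libraries. The part of these genes' cells in the ratios was not tested, and neither was the difference between clusters.

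Over the 21 sums per cluster and library, the members fell into few patterns, given here as Pearson's r of log2(level + 0.1) with no test. The points share libraries and clusters and are not independent. *Notch4* and *Dll4* were the most alike of the members (0.98), followed by *Notch1* and *Notch4* (0.97). *Notch2* and *Heyl* had 0.69 with each other and *Notch1* and *Notch2* -0.14. Among all genes with a level of at least 0.1, the nearest to *Notch4* was *Epas1* (0.99), to *Dll4* *Cracr2b* (0.99), to *Notch1* *Aplp2* (0.98), to *Jag1* *Unc5b* (0.98) and to *Jag2* *Sema3g* (0.99). *Cemip2* was nearest to *Hey1* (0.98), *Tmem100* to *Hey2* (0.98), *Ebf1* to *Hes1* (0.98) and *Col3a1* to *Heyl* (0.98), while the nearest to *Notch2*, *Lrp1*, reached 0.84.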

How the data were processed

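The 3 pools of sorted cells were sequenced by 10x Genomics Chromium 3′ v3 chemistry. Cell Ranger 3.1.0 on mm10 was the authors' first step, after which they merged the libraries, corrected batch effects and kept singlets. No doublet caller was run here. The gene annotation used is not given in the sources used here. Seurat 3.1.5 is also named in the submitters' processing notes. They deposited whole-number UMI counts per Ensembl gene and cell, which were used here for all levels. Another deposited table gives normalized values on a natural log scale, ln(1 + UMIs per 10,000), which equalled those recomputed from the counts to within 6.2e-15 and served as an alternative. The cluster table gives the deposited cluster numbers (Leiden clusters made by the authors in scanpy, numbered from high *Cdh5* to high *Runx1*), used as they are, and UMAP coordinates, a score that was not used.

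The table held 27,998 genes and 9,562 cells with 252,339,042 UMIs, of which 90 cells had under 5,000 UMIs, the minimum given in the methods. Names from GENCODE M21 (GRCm38) were found for 27,722 genes, 276 kept their identifier, and counts of equal names were summed to 27,985 rows. Barcode sequences occurring in more than 1 library numbered 13.

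The members and lists were chosen with earlier results of these data known. Text names the 10 members, 42 other pathway genes by list, 5 endothelial reference genes, cell type markers and, for each member, the gene most correlated with it (the 3 nearest were computed). Levels are summed UMIs per 10,000 UMIs with exact Poisson intervals, shares carry Clopper–Pearson intervals at 5,000 UMIs per cell (random seed 1), and log2 ratios carry exact conditional binomial intervals, all at 95%. Since no label maps cells to pools, the table was counted as 1 sample and no P values were computed. The calculation of ratios and intervals was run on simulated counts that held counting error only. Changes larger than 2-fold were put only into genes well above the minimum level. The simulation therefore does not test the intervals against spread between cells, nor the rule for genes near its limits. Alternatives were to leave out each library, to average the deposited normalized values over cells, to set the minimum level at 0.5 or to none, to set the fold at 1.5, to use 5,000 UMIs per cell, and to define *Runx1*-positive cells otherwise. Scripts ran in Python 3.11.15 with scipy 1.17.1, numpy 2.4.6 and pandas 2.3.3.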

Additional observations from a re-analysis of the deposited data

Results flagged for a closer look

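The log2 ratio of *Jag1* in *Runx1*-positive to *Runx1*-negative cells was -0.67 in cluster 0 (-0.99 to -0.36) and 0.65 in cluster 2 (0.23 to 1.05). It is listed because every library went 1 way in cluster 0 (-0.41, -0.78 and -0.92) and the opposite way in cluster 2 (0.12, 0.77 and 0.39). The difference was not tested. The value in cluster 2 rests on 52 *Jag1* UMIs in 87 cells, 58 of which came from library suffix 2. The leukocyte genes summed to 0.584 in the 87 cells against 0.106 in the *Runx1*-negative cells of the same cluster. Fibroblast genes summed to 0.674 against 0.152, megakaryocyte genes to 0.899 against 0.224 and mural genes to 0.388 against 0.0537. Germ and epithelial genes were higher too, while erythroid genes had 0.0786 against 0.199. Each of these sets overlapped between libraries, with 0.0363 to 1.22 against 0.0467 to 0.208 for the leukocyte genes. The part of these genes' cells in the value was not tested.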

How the results depend on the processing

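No paired analysis was possible because no label ties a cell or suffix to a pool, so that the table counts as 1 sample here, and a test with the suffixes as unnamed replicates was not run. With a minimum level of 0.5 in place of 0.1, which leaves fewer genes, the members past the fold were 3 higher in cluster 1 against cluster 2, 0 higher and 2 lower in cluster 4, 0 higher and 3 lower in cluster 5, and 3 lower in cluster 6. Leaving out each library in turn gave 0 to 1 higher in cluster 5, 5 to 7 higher in cluster 1 against cluster 2, and 1 to 2 lower by *Runx1* in cluster 0. The count lower by *Runx1* was the least stable. It was 1 as reported, 2 without suffix 1 (*Notch1* and *Notch4*) or suffix 3 (*Notch4* and *Dll4*), 3 with the mean over cells and with random seed 2, 6 at a fold of 1.5, 4 with 5,000 UMIs per cell, 4 when at least 2 *Runx1* UMIs defined the 22 positive cells, and 2 when more than 0.5 UMIs per 10,000 defined 70 positive cells. *Notch4* was past the fold in each of these, and the cause was not tested. Shares of all genes are given for the reported rule only. The counts under changed settings therefore have no such share beside them and show only how the members moved. Over all recomputed counts, 94 stayed within 1.5 times the reported value and 15 did not. Of the single ratios and shares, 272 stayed within the 95% counting interval of the reported value and 110 did not. No member past the fold changed sign, but some others did. *Notch2* in cluster 0 against clusters 1 and 2 went from -0.33 to 0.09 without suffix 2, and in cluster 1 against cluster 2 from 0.88 to -0.29 with 5,000 UMIs per cell. In cluster 4, *Hey2* went from 0.15 to -0.59 and *Hes1* from 0.26 to -0.08 with 5,000 UMIs per cell, and *Jag1* from -0.20 to 0.00 without suffix 2. By *Runx1* in cluster 0, *Hes1* went from -0.17 to 0.21 without suffix 1, and *Notch2* and *Heyl*, with at most 3 UMIs in positive cells, also changed sign. The 7 members with their highest share in cluster 0 numbered 7 under all 5 alternatives. *Dll4* is among them, and its intervals in clusters 0 and 1 overlapped, so the count does not settle its order. Intervals at this depth leave *Notch2* and *Heyl* unresolved in the *Runx1* split.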
